A study of Mus musculus with 10 samples.

Results

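The genes described here make, sense, move and export cholesterol. They were chosen by name, 32 in all, with earlier results of these data known. Each was read from the probe set with its single gene symbol and the highest mean over the arrays. Of the 32 members 30 had such a probe set, all 30 passed the filter on dim values, and they stood among 11333 genes tested. Acat2 and Soat1 were not analysed here. The tissue was whole lung from female adults of the inbred strain C57BL/6, with no genetic modification given. The exposed group held 5 mice that drank water with 50 ppm arsenic for 12 weeks from 8 weeks of age, and the control group held 5 mice that drank deionized water. The series text names the compound arsenate and the sample protocols name arsenite, so it is called arsenic here. Each animal gave 1 Affymetrix array, and every level below is a log2 value. In whole tissue, fewer cells of a type and less RNA per cell cannot be told apart.

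Cholesterol is built from acetyl-CoA through mevalonate, isoprenoid diphosphates, squalene and lanosterol. When sterols in the endoplasmic reticulum are low, SCAP escorts the membrane-bound SREBP factors to the Golgi, where they are cleaved and released to switch on the genes of the pathway. When sterols are high, INSIG proteins hold SCAP back. Surplus sterol activates LXR receptors, which raise the efflux transporters ABCA1 and ABCG1. In the lung, cholesterol is a component of the surfactant made by alveolar type 2 cells, and alveolar macrophages that take up surfactant depend on ABCG1 to export it.

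The arrays had medians between 4.11 and 4.26 and correlated with each other at 0.990 to 0.997 over all probe sets. The alveolar type 2 gene Sftpc averaged 16.03 in arsenic lungs and 16.08 in control lungs, and the club-cell gene Scgb1a1 averaged 16.26 in arsenic lungs and 16.27 in control lungs, and both are near the top of the table's range of values. The 7 markers of steroid-making cells and 4 of the 6 hepatocyte markers lay below the filter on every array. Transcripts of kidney were present in some lungs: the mean log2 level of 22 kidney markers ran from 4.33 to 5.89 in arsenic lungs and from 3.28 to 4.91 in control lungs, highest in arsenic replicate 4, and 10 of the 22 lay below the filter on every array. All 9 kidney markers tested had positive differences (median 1.82), as had 63.2% of all genes. At an unadjusted limma p of 0.05 4 were higher, against 10.6% of all genes, and none passed after adjustment. A fit with the kidney level as a covariate therefore cannot fully separate that level from the exposure. The 12 alveolar macrophage markers had mean levels of 10.13 to 10.50 in arsenic lungs and 10.03 to 10.48 in control lungs, and the 14 type 2 markers 14.17 to 14.35 in arsenic lungs and 14.29 to 14.38 in control lungs. The number before the hyphen in the animals' labels differs between the groups. Its meaning is not given, and a cage or batch it might mark cannot be told apart from the exposure.

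In lungs of arsenic-exposed mice 1 member rose, the endoplasmic reticulum protein gene Erlin1, by 0.58 on the log2 scale or 1.49-fold (SE 0.08, limma adjusted p = 0.0176). No member fell. The largest negative differences were those of the early synthesis enzyme Hmgcs1 (-0.68, SE 0.17, limma adjusted p = 0.131) and of the sterol carrier Stard4 (-0.58, SE 0.12, limma adjusted p = 0.0790), neither of which passed. Of all genes tested 0.476% passed: 0.379% rose and 0.0971% fell, and 1 riser among 30 members is 3.33%. The members were chosen with earlier results known, so shares of members and enzymes beside those of all genes are descriptions and not tests. Of the 17 synthesis enzymes 14 had a negative difference, with a median of -0.18. Among all genes tested 36.8% had a negative difference and the median was 0.06, both in the main fit. The median of all genes moved with the processing. It was -0.01 when no filter was applied (18194 genes) and 0.12 after median centring of each array (11327 genes). The enzymes' median in these fits was -0.18 and -0.12. None of the 17 enzymes passed the test, and at an unadjusted p of 0.05 limma gave 2 lower and 1 higher, where 5.13% of all genes were lower and 10.6% higher. By the median deviation of the 17 enzymes from their means over all arrays, arsenic replicate 4 was lowest (-0.24) and control replicate 5 highest (0.27). Without both, 10 of the 17 were negative and their median was -0.058. That pair was picked with the values known and its removal favours a smaller difference, so the fit cannot show dependence on these animals. Without arsenic replicate 4 and control replicate 2 instead, 13 of the 17 were negative and their median was -0.15.

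**Figure D1:**
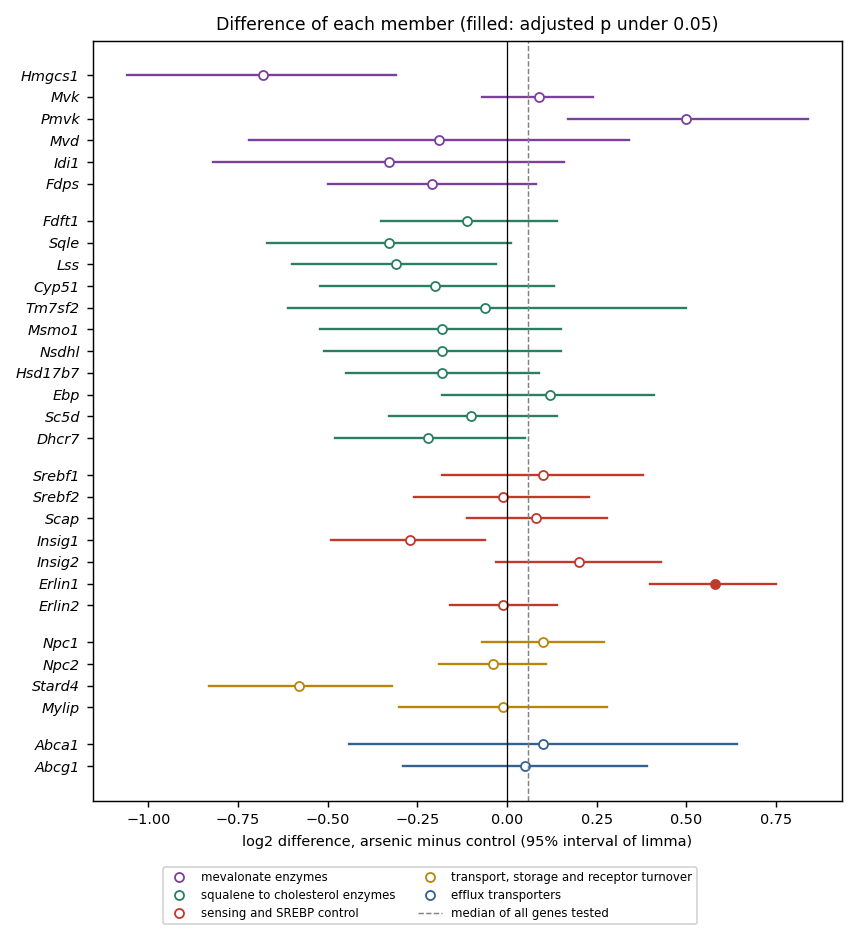
Log2 difference between 5 arsenic and 5 control lungs for each of the 30 members, in 5 role groups from synthesis to efflux. Points are limma estimates, horizontal lines their 95% intervals, the filled point has an adjusted p under 0.05, and the dashed line is the median of all genes tested, 0.06. The only filled point is Erlin1 at 0.58, and 14 of the 17 synthesis enzymes lie left of 0.

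The sensing machinery comes first, since it holds the member that rose. Erlin1 and its close relative Erlin2 encode prohibitin-family proteins that form a complex in the endoplasmic reticulum membrane. In human cells this complex binds cholesterol, restrains SREBP activation and guides proteins to degradation. Erlin1 stood at 9.74, 9.85, 9.70, 9.62 and 9.78 in arsenic replicates 1 to 5, against 9.0, 9.18, 9.07, 9.28 and 9.28 in control replicates 1 to 5. Every arsenic lung lay above every control lung, a separation seen in 2.82% of all genes tested in that direction. The group levels were 9.74 ± 0.09 with arsenic and 9.16 ± 0.12 in controls (log2, mean ± SD, n = 5 each), and the 95% interval of the difference ran from 0.40 to 0.75. By unadjusted p Erlin1 was at rank 12 of the 11333 genes.

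The size of the Erlin1 difference stayed between 0.54 and 0.61 when any 1 animal was left out, but its limma adjusted p did not always pass. It was 0.0626 without arsenic replicate 2, 0.0531 without arsenic replicate 5, 0.0650 without control replicate 1 and 0.0642 without control replicate 3. Adjusting for the kidney level left a difference of 0.57 (limma adjusted p = 0.0696), a fit in which no gene of the array passed. The median kidney level was 4.66 in arsenic lungs and 4.1 in control lungs, so this fit does not fully separate it from the exposure. A second Erlin1 probe set lay below the filter on all arrays and adds nothing. Erlin2, measured by 1 probe set, showed no such separation: it spanned 9.78 to 9.96 in arsenic lungs and 9.84 to 10.03 in control lungs. Its difference was -0.01, with a 95% interval of -0.16 to 0.14 that lies entirely below that of Erlin1.

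INSIG1 and INSIG2 both retain SCAP, and Insig1 is itself an SREBP target, so its transcript is often read as a gauge of SREBP activity. Insig1 stood at 10.32, 10.05, 10.06, 9.88 and 10.04 in arsenic replicates 1 to 5, against 10.16, 10.31, 10.29, 10.42 and 10.55 in control replicates 1 to 5. In 4 of the 5 arsenic lungs it was below every control, and arsenic replicate 1 lay among the controls. The difference was -0.27 (SE 0.10, unadjusted p = 0.0180, limma adjusted p = 0.244). Insig2 stood at 10.24, 10.30, 10.12, 10.15 and 10.20 with arsenic, against 10.04, 9.78, 9.79, 10.31 and 10.09 in controls. Its arsenic values were tightly grouped, and control replicate 4 alone exceeded them all. The Insig2 difference was 0.20 (SE 0.11, limma adjusted p = 0.380), and its other 2 probe sets gave 0.15 and 0.24. The paralogs thus had estimates of opposite sign, neither of them past the test over all genes.

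The transcription factor and its escort showed no difference that could be told from the spread. Srebf2, which encodes the SREBP of the cholesterol branch, stood at 9.46, 9.94, 9.84, 9.58 and 9.84 in arsenic lungs, against 9.68, 9.78, 9.69, 9.59 and 10.01 in control lungs. Its difference was -0.01, with a 95% interval of -0.26 to 0.23. Scap stood at 10.22, 10.44, 10.35, 10.26 and 10.43 with arsenic, against 10.28, 10.34, 10.21, 10.03 and 10.41 in controls. The groups of both genes overlapped over most of their range. Scap had a difference of 0.08 (interval -0.11 to 0.28), and Srebf1, whose product serves fatty acid synthesis, of 0.10 (interval -0.18 to 0.38). SREBP proteins are controlled by cleavage, which transcript levels do not measure.

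**Figure D2:**
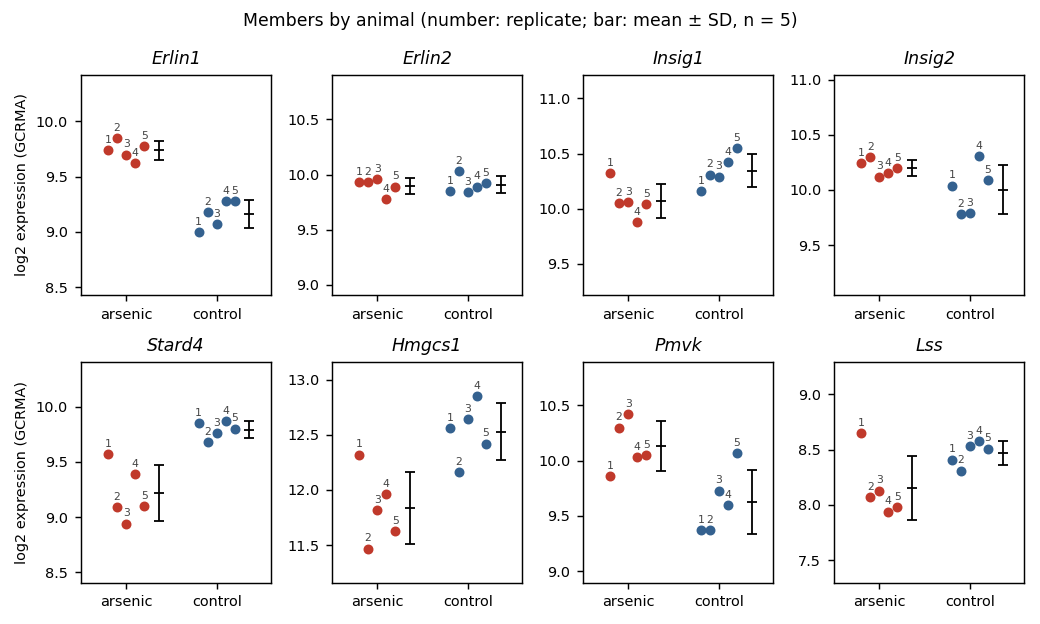
Log2 expression of 8 members in each animal, arsenic left and control right, numbered by replicate, with the mean ± SD of 5 animals beside the points. Each panel spans 2 log2 units. Erlin1 and Stard4 have groups that do not overlap (Erlin1 9.62 to 9.85 with arsenic, above 9.0 to 9.28 in controls), while in Insig1, Hmgcs1 and Lss arsenic replicate 1 lies within the range of the controls or above it.

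The promoters of 3 members are shown because they belong to the member that rose and to a pair of SREBP targets with negative estimates, the early synthesis enzyme Hmgcs1 and the SCAP anchor Insig1. The windows run from 250 bases before to 50 bases after the transcript start, in RefSeq's GRCm38.p6 annotation, read 5′ to 3′ on the gene's strand. Capitals mark every match, on either strand, to CACNCCAC, which is the core of the sterol regulatory element bound by SREBP, and to CCAAT, the box bound by NF-Y, a factor that works with SREBP. No matches overlapped in these 3 windows. The Erlin1 window is the first listed of 3 starts, at chr19:44069736-44070035 on the minus strand. The Insig1 window is at chr5:28071162-28071461 and the Hmgcs1 window at chr13:119690101-119690400, both on the plus strand.
Erlin1: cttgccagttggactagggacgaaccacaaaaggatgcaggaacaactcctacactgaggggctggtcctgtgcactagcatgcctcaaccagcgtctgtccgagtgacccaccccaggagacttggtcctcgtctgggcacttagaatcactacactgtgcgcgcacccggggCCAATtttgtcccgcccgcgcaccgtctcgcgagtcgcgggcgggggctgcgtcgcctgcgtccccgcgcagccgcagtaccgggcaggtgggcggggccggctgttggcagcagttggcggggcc
Insig1: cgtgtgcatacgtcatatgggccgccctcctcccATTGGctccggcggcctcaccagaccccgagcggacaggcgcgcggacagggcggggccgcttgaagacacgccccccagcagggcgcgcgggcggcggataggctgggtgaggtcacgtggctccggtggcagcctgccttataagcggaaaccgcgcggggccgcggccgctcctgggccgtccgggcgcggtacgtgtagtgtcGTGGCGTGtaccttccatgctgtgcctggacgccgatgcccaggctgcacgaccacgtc
Hmgcs1: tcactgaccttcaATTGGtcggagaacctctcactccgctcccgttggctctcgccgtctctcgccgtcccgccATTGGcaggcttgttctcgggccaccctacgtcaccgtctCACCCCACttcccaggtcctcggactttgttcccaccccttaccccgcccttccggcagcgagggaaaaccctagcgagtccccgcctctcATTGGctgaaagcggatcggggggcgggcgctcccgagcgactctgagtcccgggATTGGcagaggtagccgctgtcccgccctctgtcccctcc

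The Hmgcs1 window held 1 match to CACNCCAC and 4 to CCAAT, the Insig1 window 1 of each, and the Erlin1 window 0 and 1. RefSeq windows were given for 23 of the 30 members, 33 windows in all. CACNCCAC matched in 2 of these 33 windows (6.06%), those of Hmgcs1 and Insig1, close to the 6.24% of all 32851 windows of the same length. Of the 17 windows of the synthesis enzymes 1 had it (5.88%). CCAAT matched in 24 of the 33 (72.7%), and in 14 of 17 windows of the synthesis enzymes (82.4%), against 37.4% of all windows. All 14 enzymes with a window had at least 1 window with CCAAT. Windows of a gene can overlap, and the 3 Erlin1 windows held the same CCAAT. These matches are descriptions of letters, and no binding was measured.

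The mevalonate enzymes did not move as a block. Of the 6 measured, 4 had a negative difference and 2 a positive one, with a median of -0.20. Hmgcs1, which condenses acetyl-CoA with acetoacetyl-CoA, stood at 12.32, 11.47, 11.82, 11.96 and 11.63 in arsenic replicates 1 to 5, against 12.56, 12.16, 12.64, 12.85 and 12.42 in control replicates 1 to 5. In 4 of 5 arsenic lungs it was below every control, and replicate 1 was above control replicate 2 alone. The difference was 1.61-fold downward (-0.68, 95% interval -1.06 to -0.31, unadjusted p = 0.00195), at rank 169 of all genes. All 5 Hmgcs1 probe sets had negative differences, of -0.57 to -1.03, and limma adjusted p of 0.112 to 0.159 when each probe set was tested on its own. The difference ranged from -0.80 to -0.59 when any 1 animal was left out, and was -0.84 with the kidney level as a covariate.

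Pmvk, the kinase that adds the second phosphate to mevalonate, had the opposite sign. It stood at 9.86, 10.30, 10.42, 10.03 and 10.05 in arsenic lungs, against 9.37, 9.37, 9.73, 9.60 and 10.07 in control lungs. Control replicate 5 reached the arsenic range, and the other 4 controls lay below all arsenic values. The difference was 0.50 (SE 0.15, unadjusted p = 0.00713, limma adjusted p = 0.193). Pmvk has 1 probe set, so no second reading was at hand. Mvk, the kinase before it, had 0.09 (interval -0.07 to 0.24), with 7.15 to 7.27 in arsenic lungs and 6.94 to 7.21 in control lungs.

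The steps after the kinases had negative estimates within a wide spread. Idi1, which isomerises isopentenyl diphosphate, stood at 9.93, 9.34, 9.10, 9.53 and 9.16 in arsenic lungs, against 9.46, 9.23, 9.92, 10.41 and 9.70 in control lungs, a difference of -0.33 (interval -0.82 to 0.16). It was -0.17 without control replicate 4, the highest lung, and -0.63 with the kidney level as a covariate. Fdps, the farnesyl diphosphate synthase, stood at 11.19, 11.54, 11.28, 10.81 and 11.13 with arsenic, against 11.52, 11.22, 11.29, 11.34 and 11.63 in controls. Its difference of -0.21 (interval -0.50 to 0.08) was -0.11 without arsenic replicate 4, the lowest lung, and -0.038 with the kidney level as a covariate. Both genes thus overlapped widely between groups. Mvd, the decarboxylase that acts just before Idi1, was the dimmest member and had -0.19 (interval -0.72 to 0.34), with a second probe set at 0.11.

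From squalene to cholesterol, 10 of 11 enzymes had a negative difference, with a narrow range of -0.33 to 0.12 and a median of -0.18. None passed, and Lss alone had an unadjusted p under 0.05. Sqle, the squalene epoxidase, stood at 10.41, 10.62, 10.33, 10.22 and 9.93 in arsenic lungs, against 10.60, 10.33, 10.41, 10.82 and 11.00 in control lungs. Its 2 highest values were controls and its 2 lowest were arsenic lungs, with the rest mixed. The difference was -0.33 (SE 0.16, limma adjusted p = 0.338). Lss, which closes the rings to make lanosterol, stood at 8.65, 8.07, 8.13, 7.94 and 7.98 with arsenic, against 8.41, 8.31, 8.53, 8.58 and 8.51 in controls. Arsenic replicate 1 was the highest of all 10 lungs and the other 4 arsenic lungs the lowest. The difference was -0.31 (SE 0.13, limma adjusted p = 0.284) and -0.44 without arsenic replicate 1. A second Lss probe set had a difference of 0.00, so the 2 readings of this gene differ.

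Dhcr7, the reductase that yields cholesterol, stood at 8.16, 8.36, 7.92, 7.77 and 8.17 in arsenic lungs, against 8.34, 8.26, 8.24, 8.10 and 8.52 in control lungs, a difference of -0.22 (interval -0.48 to 0.05). It was -0.14 without arsenic replicate 4 and -0.054 with the kidney level as a covariate. Hsd17b7, a ketosteroid reductase of the pathway, stood at 7.52, 7.35, 6.96, 7.30 and 7.45 with arsenic, against 7.43, 7.39, 7.28, 7.65 and 7.74 in controls, a difference of -0.18 (interval -0.45 to 0.09). In both genes the groups overlapped. The lanosterol demethylase Cyp51 had -0.20, the methyl oxidase Msmo1 and the decarboxylating dehydrogenase Nsdhl -0.18 each, the squalene synthase Fdft1 -0.11 and the desaturase Sc5d -0.10. The sterol reductase Tm7sf2 had -0.06, turning to 0.14 without arsenic replicate 4, and the isomerase Ebp 0.12. A second probe set of Sc5d gave -0.34 (unadjusted p = 0.0240), and second probe sets of Cyp51, Fdft1, Msmo1 and Hsd17b7 gave -0.23, -0.12, -0.18 and -0.13.

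The enzymes' levels also differed between animals of 1 group. The median deviation of the 17 enzymes from their 10-array means was 0.01, 0.14, -0.14, -0.24 and -0.11 in arsenic replicates 1 to 5, and 0.10, -0.13, -0.02, 0.19 and 0.27 in control replicates 1 to 5, so the groups overlapped. Arsenic replicate 4 was the lowest of all 10 lungs for 8 of the 17 enzymes and below the mean for 16. Control replicate 5 was the highest of all for 7 and above the mean for all but 1, and control replicate 4 was the highest for 5. Among the controls, replicate 2 was lowest for 8 enzymes.

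The animals were not ordered alike for every enzyme. Arsenic replicate 2 was the highest arsenic lung for 9 enzymes, among them Fdps, Fdft1, Sqle, Msmo1 and Nsdhl, yet the lowest for Hmgcs1. Arsenic replicate 1 was the highest for 5, namely Hmgcs1, Idi1, Lss, Hsd17b7 and Sc5d. Arsenic replicate 4 also had the highest kidney level, 5.89. With that level as a covariate 11 of 17 enzymes were negative with a median of -0.10, and without arsenic replicate 4 there were 13 with a median of -0.093. Without control replicate 5 there were 14 with a median of -0.12.

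Markers of lung cell types leaned lower in some lists and higher in others, and none of those tested passed. Of the type 2 cell markers 12 of 14 were negative (median -0.05), of the fibroblast and lipofibroblast markers 10 of 13 (median -0.08, with 3 lower at an unadjusted p of 0.05) and of the B cell markers 5 of 5 (median -0.41, with 1 lower). Of all genes tested 36.8% were negative and 5.13% were lower at that p. Of the adipocyte markers 3 of 5 were negative (median -0.06). Their mean levels overlapped between the groups, at 10.71 to 10.88 in arsenic lungs and 10.83 to 10.97 in control lungs for the fibroblast list and at 6.31 to 6.92 in arsenic lungs and 6.56 to 7.37 in control lungs for the B cell list. Of the alveolar macrophage markers 10 of 12 were positive (median 0.18, with 2 higher at an unadjusted limma p of 0.05). Positive too were 8 of 10 endothelial markers (median 0.06) and 3 of 4 neutrophil markers (median 0.08), none of them higher at that p. Among all genes tested 63.2% were positive and 10.6% were higher at that p. The part of these cell types in the enzymes' differences was not tested.

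**Figure D3:**
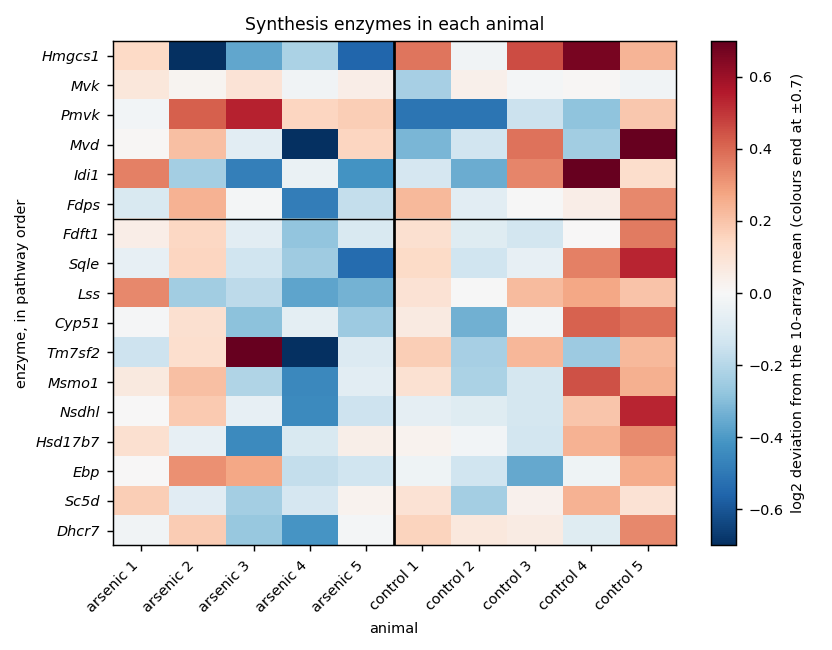
Deviation of each of 17 synthesis enzymes from its mean over 10 lungs (log2, red higher, blue lower), with enzymes in pathway order down the page, arsenic lungs left of the thick line and control lungs right of it. Arsenic replicate 4 is blue in 16 of 17 rows and control replicate 5 red in 16 of 17, while Hmgcs1 is blue in 4 of 5 arsenic lungs.

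Among the genes that move sterols inside the cell, Stard4 stood apart. STARD4 is a soluble carrier that transfers cholesterol between membranes, and its gene is a known SREBP target. Stard4 stood at 9.57, 9.09, 8.94, 9.39 and 9.10 in arsenic replicates 1 to 5, against 9.85, 9.68, 9.76, 9.87 and 9.80 in control replicates 1 to 5. Every arsenic lung lay below every control lung, which 0.803% of all genes tested did in that direction. The group levels were 9.22 ± 0.26 with arsenic and 9.79 ± 0.08 in controls (log2, mean ± SD, n = 5 each), so the arsenic lungs also scattered more. The difference of -0.58 (95% interval -0.83 to -0.32, rank 69 of all genes) missed the threshold at a limma adjusted p of 0.0790. Of 22 alternatives it passed only without arsenic replicate 1 (-0.66, limma adjusted p = 0.0215) and with the filter at the 75th percentile (limma adjusted p = 0.0486). That is 1 of the 10 fits without 1 animal and 1 of the 12 others. Over all 22 the limma adjusted p reached 0.218, and the difference kept its sign. The other 2 Stard4 probe sets gave -0.64, also with groups apart, and -0.42, with groups that overlapped.

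The remaining genes of this kind were level. NPC1 and NPC2 hand cholesterol out of the lysosome, and Npc2, the brightest member, spanned 14.96 to 15.13 in arsenic lungs and 15.05 to 15.27 in control lungs. Its difference was -0.04 (interval -0.19 to 0.11). Npc1 had 0.10 (interval -0.07 to 0.27). Mylip, a ubiquitin ligase and LXR target that removes lipoprotein receptors, had -0.01 (interval -0.30 to 0.28).

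The efflux transporters did not differ beyond their spread. Abca1 spanned 10.07 to 10.86 in arsenic lungs and 9.65 to 11.04 in control lungs, a difference of 0.10 (interval -0.44 to 0.64) that was -0.11 without control replicate 5. Abcg1 spanned 10.40 to 11.07 with arsenic and 10.32 to 10.99 in controls, a difference of 0.05 (interval -0.29 to 0.39). These intervals are wide, and they allow differences as large as that of Erlin1 for Abca1. The further Abca1 probe sets had 0.02 and -0.05.

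Over the 30 members, 2 had groups that did not overlap, Erlin1 upward and Stard4 downward, or 6.67% against 3.63% of all genes tested. At an unadjusted p of 0.05 there were 6, or 20%, against 15.7% of all genes. These shares describe a set chosen with earlier results known, and the set was not tested. The members that reached it were Erlin1 and Pmvk, higher, and Stard4, Hmgcs1, Insig1 and Lss, lower. Of the 24 further probe sets of members that passed the filter, 19 had the sign of the probe set used and 5 the opposite sign.

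Neighbouring genes of sterol and lipid handling, listed apart from the members, had mostly positive estimates, as had 63.2% of all genes tested, and none passed the test. Of 9 measured LXR receptors, targets and HDL genes all 9 were positive or at 0.00, with a median of 0.17. At an unadjusted p of 0.05 limma gave 1 of these 9 higher, near the 10.6% of all genes tested. It was the receptor partner Rxrb (0.17, limma adjusted p = 0.294). The receptor gene Nr1h3 (LXR alpha) had 0.22 and Apoe, which carries exported cholesterol, 0.19. Of 5 oxysterol and bile acid enzymes, 4 were positive with a median of 0.23. Ch25h, which makes the oxysterol that binds INSIG and blocks SREBP processing, averaged 8.64 ± 0.28 in arsenic lungs and 8.04 ± 0.33 in control lungs (log2, SD, n = 5 each). This difference of 0.60 (SE 0.18, unadjusted p = 0.00579) had a limma adjusted p of 0.181, and Cyp27a1, which hydroxylates the sterol side chain, had 0.23 (limma adjusted p = 0.283). Cyp7b1, an oxysterol hydroxylase, had -0.19.

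Of 16 measured genes of fatty acid synthesis, the branch served by Srebf1, 12 were positive and 4 negative, with a median of 0.11. At an unadjusted p of 0.05 limma gave 2 of them higher and 0 lower, against 10.6% and 5.13% of all genes tested. The carboxylase gene Acaca (0.19, limma adjusted p = 0.253) and the phosphatidate phosphatase gene Lpin1 (0.26, limma adjusted p = 0.235) had arsenic values above all control values, as had 2.82% of all genes tested. Acacb had 0.16. Of 7 other sensing and SREBP-processing genes, 5 were positive with a median of 0.10. The ubiquitin-conjugating enzyme gene Ube2g2, which serves sterol-driven protein degradation in the endoplasmic reticulum, averaged 10.09 ± 0.12 in arsenic lungs and 9.74 ± 0.15 in control lungs, with groups that likewise did not overlap (0.35, SE 0.09, limma adjusted p = 0.146). The protease gene Mbtps2, which makes the second SREBP cleavage, had -0.47 (SE 0.22, limma adjusted p = 0.329) and Rnf139 0.14.

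Of 6 measured genes listed as other synthesis and prenyl branch genes, 3 were positive and 3 negative, with a median of 0.03. The geranylgeranyl synthase gene Ggps1 had -0.34 (SE 0.16, limma adjusted p = 0.344), Dhdds 0.15 and Coq2 0.08. Of 15 genes of sterol transport, uptake and storage 13 were positive with a median of 0.10, led by Osbpl2 (0.20, limma adjusted p = 0.284), Lrp1 (0.20) and Stard5 (0.21). The lowest of these 15 estimates was -0.07.

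**Figure D4:**
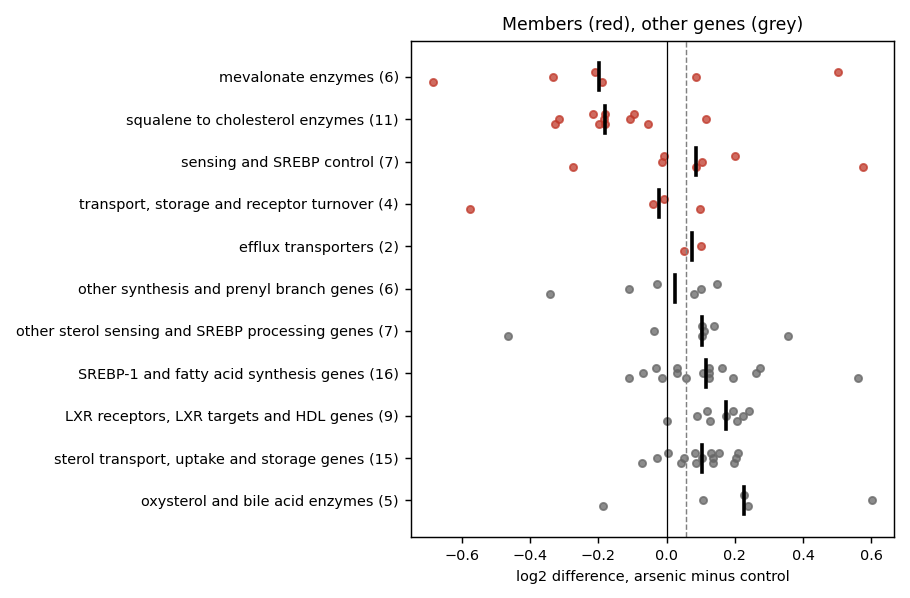
Log2 difference between arsenic and control lungs for each gene, with the members in 5 role groups (red) and 6 further lists of sterol and lipid genes (grey). Each point is a gene, thick bars are list medians, numbers in brackets count the genes tested, and the dashed line is the median of all genes tested, 0.06. The medians of both synthesis groups lie at -0.20 and -0.18, and those of the 6 further lists between 0.03 and 0.23.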

How the data were processed

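Total RNA from lung (Trizol, then a Qiagen clean-up) was read on Mouse430_2 arrays, per the labels. The authors deposited log2 values for 45101 probe sets on 10 arrays, made with GCRMA (background from probe sequence, normalization between arrays, summary per probe set), per the submitters' processing notes. Its version is not given in the sources used here, nor are its settings. GCRMA compresses dim values. Scanner files were not used here.

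Groups and replicate numbers came from the titles, and each array is a separate animal. Probe sets were named by the platform annotation: 34958 had 1 symbol, 932 several and 9211 were not listed. A probe set was kept if above the table median, 4.20, on at least 5 arrays (22552), and a gene was its kept probe set of highest mean. The arsenic-minus-control difference was fitted in limma 3.58.1 (lmFit, then eBayes with 2.82 prior degrees of freedom; R 4.3.3), without covariates, with Benjamini-Hochberg adjustment over all 11333 genes and a threshold of 0.05. The fit was tested on simulated data. The number of arrays limits precision. Figures used matplotlib 3.10.9.

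Members and lists were chosen with earlier results of these data known. All members are named, the 12 with the smallest p and Srebf2, Scap and Insig1 with every animal's value, and from each further list the 3 genes with the smallest p. Alternatives were other filters, probe-set rules, normalizations, eBayes settings, array weights, a replicate block, the kidney level as a covariate and leaving out animals. Leaving out arsenic replicate 4 with control replicate 5 was chosen after seeing the data. Promoter windows and motifs were matched by gene symbol to RefSeq.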

Additional observations from a re-analysis of the deposited data

Results flagged for a closer look

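In 60 groups of 5 animals (30 members in arsenic and in control lungs), 4 had an animal far from the others, by a gap to its nearest neighbour over 0.710 of the group's range. Chance alone gives about 1 in 20. In Npc2, arsenic replicate 4 was at 14.96 with the others at 15.10 to 15.13 (gap 0.834 of the range). In Mvd, arsenic replicate 4 was at 6.08 with the others at 6.77 to 7.05 (0.713). In Lss, arsenic replicate 1 was at 8.65 with the others at 7.94 to 8.13 (0.720). In Mvk, control replicate 1 was at 6.94 with the others at 7.15 to 7.21 (0.782). Arsenic replicate 4, which has 2 of the 4, was also the lung with the highest kidney level.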

How the results depend on the processing

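Of the members, 1 passed higher and 0 lower. None passed higher with the replicate block (Erlin1 0.58, limma adjusted p = 0.0706), with the kidney level as a covariate (0.57, 0.0696) or without both arsenic replicate 4 and control replicate 2 (0.61, 0.0664). Leaving out 1 animal gave 0 to 1 higher and 0 to 1 lower, with Erlin1 at 0.54 to 0.61 (limma adjusted p 0.0237 to 0.0650, past the threshold in 6 of 10). With the filter at the 75th percentile 1 passed lower, Stard4 (-0.58). The direction of Erlin1, Stard4, Hmgcs1, Pmvk, Insig1, Lss, Sqle and Insig2 was the same under all 22 alternatives.

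All genes past the threshold were 43 higher and 11 lower. They were 16 and 3 without a filter, 2 and 3 with the replicate block, 0 and 0 with the kidney level, 9 and 2 without both arsenic replicate 4 and control replicate 2, and 15 and 2 without both arsenic replicate 4 and control replicate 5. They were 43 and 5 with arrays centred on their median, and 59 and 40 probe sets with each probe set on its own. Leaving out 1 animal gave 7 to 34 and 2 to 7. Same-numbered animals did not regularly deviate together (correlations -0.332 to 0.253, 2 of 5 over 0.1, 0 of 10 arrays closest to their own number). What a shared number marks is not given, so these correlations cannot settle whether the block is a true pairing.

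The median of the mevalonate enzymes was -0.01 with the kidney level and 0.026 without both arsenic replicate 4 and control replicate 5, and -0.28 to -0.068 when 1 animal was left out. Signs turned for 10 members with estimates between -0.19 and 0.10, none of which passed. With the kidney level Fdft1 had 0.0022, Mvd 0.018, Npc2 0.0053, Abca1 -0.033, Tm7sf2 0.28, Srebf2 0.087, Erlin2 0.026 and Mylip 0.014. With median centring Npc2 had 0.024, Tm7sf2 0.0081, Srebf2 0.049, Erlin2 0.056 and Mylip 0.055. Npc2 had 0.030 with the mean of probe sets and Erlin2 0.012 with array weights. Without both arsenic replicate 4 and control replicate 2, Abca1 had -0.0069, Tm7sf2 0.079, Srebf2 0.031, Erlin2 0.054 and Mylip 0.062. Without both arsenic replicate 4 and control replicate 5, Nsdhl had 0.017, Fdft1 0.026, Mvd 0.15, Npc2 0.028, Abca1 -0.17, Tm7sf2 0.19, Srebf2 0.089 and Erlin2 0.026. Leaving out 1 animal, Nsdhl ran from -0.25 to -0.071, Fdft1 from -0.16 to -0.029, Mvd from -0.29 to -0.017, Npc2 from -0.059 to -0.0050, Abca1 from -0.11 to 0.24, Abcg1 from -0.053 to 0.15, Tm7sf2 from -0.26 to 0.14, Srebf2 from -0.067 to 0.052, Erlin2 from -0.024 to 0.024 and Mylip from -0.10 to 0.063. Without turning sign, Abcg1 had 0.21 without both arsenic replicate 4 and control replicate 2, and Erlin1, still past the threshold, 0.63 without both arsenic replicate 4 and control replicate 5. The cause was not tested.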
